A study of Homo sapiens with 12 samples.

Results

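The doxorubicin response of HCT116 cells that overexpress SMC5 was examined across all loci with an FPKM (fragments per kilobase of transcript, scaled to the mapped fragments of a library) of 1 or more in at least 2 of the 4 columns for these cells, which gave 14742 of the 57908 loci in the deposited table. HCT116 is an established human colorectal carcinoma line. The cells carried an SMC5-flag plasmid and received PBS (2 libraries) or 1000 nM doxorubicin (2 columns) for 24 h, starting 24 h after transfection. The same table holds cells with the control plasmid, titled GFP and described elsewhere as an empty vector, and cells with an NSE4A-flag plasmid, titled NSE4, each with 2 libraries in PBS and 2 in doxorubicin. The share of cells that took up a plasmid is not stated, and every group, controls included, was a transfected population of this 1 line.

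SMC5 pairs with SMC6 to form the ring of the SMC5/6 complex, an ATPase that compacts and untangles DNA during repair and replication. Doxorubicin is an anthracycline that traps topoisomerase II on broken DNA, and the breaks activate the kinases ATM and ATR, which stabilise the transcription factor p53. p53 then raises genes for cell cycle arrest, repair, antioxidant defence and cell death, and through p21 it lets repressor complexes turn down genes of cell division. Because these are bulk RNA samples, fewer cells of a kind and less RNA per cell cannot be told apart.

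The depth of the 4 columns was estimated from the steps between low FPKM values at 16.4 to 18.4 M fragments, an approximate figure. The doxorubicin columns were counted as 1 sample, because only 7 loci were detected in 1 column and not in the other, against 4216 for the pair of PBS libraries, and 1091 values were identical. Their values were not the same throughout, as abundant loci differed by more than counting noise (GPX1 had 1341 and 1573 FPKM). Doxorubicin values below are therefore given for both columns or as their mean, with n = 1, and PBS values for both libraries, n = 2. Whether same-group libraries stem from separate cultures is not said in the labels, and the p-values then reflect only how far these samples spread, which may be technical. Of the 14742 loci, 14559 entered the test. It asked for 1 FPKM or more in at least 2 of 11 samples, with the doxorubicin columns as 1 of them. Loci at 1 FPKM or more in all 4 columns numbered 12696. A further 1036 were under 1 FPKM in both PBS libraries and 362 under 1 FPKM in both doxorubicin columns, so these could only be seen to move in 1 direction. At the edge of the rule, 183 loci had a second-highest value between 1 and 1.05 FPKM and 169 loci outside it had one between 0.95 and 1 FPKM.

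Doxorubicin raised 1747 loci and lowered 1563 in SMC5 cells. Rises made up 11% and falls 9.87% of the 15833 loci tested over the whole table, and 3301 of the 3310 called loci met the rule for these cells. Values were compared as log2(FPKM + 1) with limma, and "rose", "fell" and "called" mean a Benjamini-Hochberg adjusted p under 0.05 over all loci tested. A change of at least 2-fold was seen in 794 risen loci (5.01%) and 453 fallen loci (2.86%). Across all loci tested the median log2 change was 0.02. The doxorubicin columns lay outside the PBS range in 11808 loci (74.6%), a share that shows how weak non-overlap is as a criterion with so few samples. The spread came from all 6 groups of the table. Fitted on the 3 SMC5 samples alone, with 1 residual degree of freedom, limma called 0 loci (4784 at an unadjusted p under 0.05), so every call below depends on the spread borrowed from the other groups. Without the PBS replicate 1 the count was 1766, and without the PBS replicate 2 it was 1963.

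**Figure D1:**
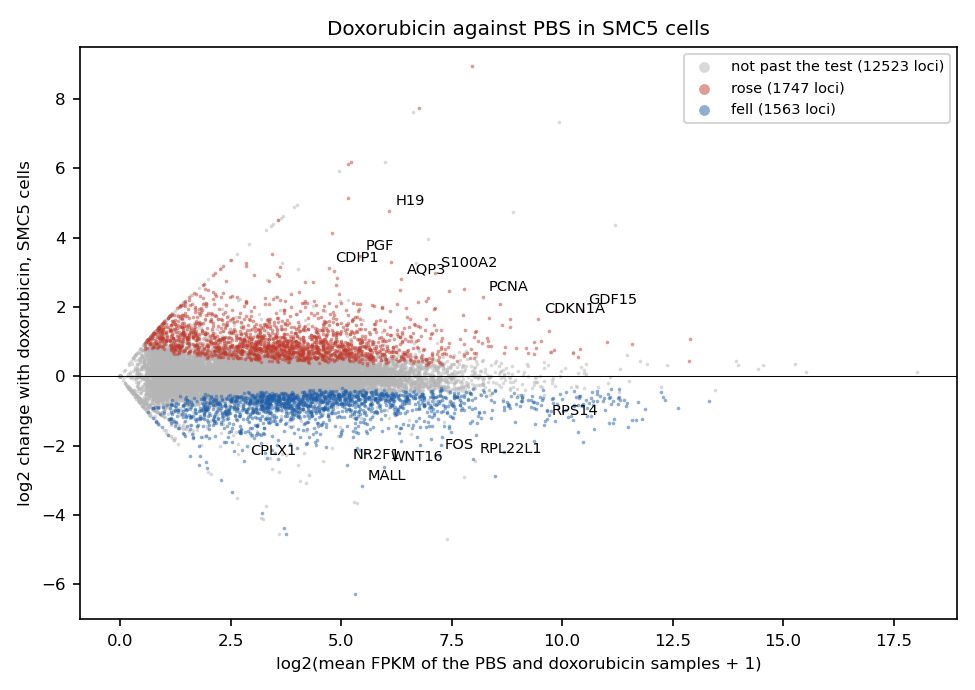
Each point is a locus tested, with its mean level in SMC5 cells as log2(FPKM + 1) on the x axis and its log2 change with doxorubicin on the y axis (PBS, n = 2; doxorubicin, n = 1). The 1747 risen and 1563 fallen loci lie on both sides of zero, and among the most abundant loci falls outnumber rises.

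Among loci that averaged 1000 FPKM or more, 8 of 107 rose and 66 fell, and between 100 and 1000 FPKM 105 of 803 rose and 209 fell. Loci between 10 and 100 FPKM were balanced, with 821 rises and 777 falls among 6514. Without the ribosomal protein list described below, 8 of the 73 loci at 1000 FPKM or more rose and 35 fell. By annotated type, 1146 of 9567 single-name protein-coding loci rose and 1105 fell, while of 1139 antisense loci 86 rose and 52 fell, and of 612 lincRNA loci 63 rose and 34 fell. Strand is not stated for these libraries, so reads from a gene and its antisense partner cannot be told apart. Risen loci had a median transcript GC content of 52.5%, fallen loci 46.8% and all loci 48.9%. The log2 change followed GC content weakly across loci (Spearman rho 0.15, a description over loci that share libraries), as it did in GFP cells (0.138) and NSE4 cells (0.149). The part of GC content in single calls was examined only through a fit on GC-adjusted values, which called 4274 of 15289 loci.

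The overexpressed gene itself was high in every SMC5 column. SMC5 measured 875 and 979 FPKM with PBS and 849.9 and 772 FPKM with doxorubicin (log2 change −0.19, SE 0.92, adjusted p = 0.914). The error was wide, and SMC5 levels were uneven in the cells without this plasmid, where the 8 libraries hold 33.5 and 8.76 FPKM (GFP, PBS), 18.6 and 7.02 FPKM (GFP, doxorubicin), 10.3 and 19.03 FPKM (NSE4, PBS) and 8.63 and 34.4 FPKM (NSE4, doxorubicin). Its partner SMC6 did not pass the test, at 10.000 and 10.5 FPKM and then 10.2 and 9.56 FPKM (log2 change −0.05, adjusted p = 0.837). The kleisin gene NSMCE4A moved from 43.1 and 32.6 to 37.9 and 37.2 FPKM, a log2 change of 0.00, and NSMCE3 from 7.25 and 5.97 to 7.86 and 7.42 FPKM (log2 change 0.19, adjusted p = 0.392). NSMCE1, a RING-domain subunit, fell from 42.8 and 52.4 to 30.02 and 33.4 FPKM (log2 change −0.56, adjusted p = 0.0196), and the SUMO ligase NSMCE2 fell from 17.6 and 18.3 to 11.5 and 11.6 FPKM (log2 change −0.60, adjusted p = 0.0193). Neither call was stable. NSMCE1 had an adjusted p of 0.0642 without PBS replicate 2, and NSMCE2 one of 0.0571 without PBS replicate 1 and 0.0718 without replicate 2. In the wider list of SMC5/6, cohesin and condensin genes 1 of 29 loci rose and 4 fell. That list held no rise and 1 fall without PBS replicate 1, and 1 rise and 2 falls without replicate 2. The cohesin ring gene RAD21, whose locus also names MIR3610, fell from 90.3 and 82.2 to 60.04 FPKM (log2 change −0.51, adjusted p = 0.0199), and did not pass without PBS replicate 1 (adjusted p = 0.0849). 

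The largest rises among single coding genes began with PGF, a growth factor of the VEGF family. It stood at 6.07 and 6.06 FPKM in PBS and 68.1 and 86.2 FPKM in doxorubicin (log2 change 3.47, SE 0.21, adjusted p = 0.000123). CDIP1, a p53-inducible death effector, went from 4.11 and 4.78 to 42.8 and 50.3 FPKM (log2 change 3.13, adjusted p = 0.0002). In both genes the 2 groups lay far apart. S100A2, a calcium-binding protein gene with p53 sites, reached 229 and 262 FPKM from 26.98 and 33.7 FPKM (log2 change 2.98, adjusted p = 0.000365). KRT80, an epithelial keratin, rose from 1.64 and 1.67 to 18.4 and 21.02 FPKM (log2 change 2.96, adjusted p = 0.000261). LGALS7B, which encodes galectin-7 and has a near-identical copy with which reads can be shared, rose from 2.41 and 1.41 to 19.1 and 21.6 FPKM (log2 change 2.90, adjusted p = 0.000404). AQP3, a water and glycerol channel, was among the more abundant of these genes and went from 18.6 and 20.5 to 129.7 and 153 FPKM (log2 change 2.80, adjusted p = 0.0002). PRODH, the proline dehydrogenase that p53 induces, rose from 4.61 and 4.34 to 31.6 and 38.1 FPKM (log2 change 2.71, adjusted p = 0.000358). TNFRSF10C, a decoy receptor for TRAIL, rose from 3.89 and 3.80 to 28.98 and 32.4 FPKM (log2 change 2.71, adjusted p = 0.000156). The other 4 of the 12 largest rises were CA2 (carbonic anhydrase, log2 change 2.48), the zinc exporter SLC30A1 (2.43), the sodium pump regulator FXYD3 (2.39) and the acetylcholinesterase gene ACHE (2.36). CA2 had the tightest values of the 12, with 23.4 and 23.3 FPKM in PBS and 136 and 135 FPKM in doxorubicin.

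By the same rule the largest fall was that of MALL, a relative of the raft protein MAL. It fell from 75.8 and 80.6 FPKM to 7.55 and 8.04 FPKM (log2 change −3.17, SE 0.15, adjusted p = 4.46e-05). WNT16, a secreted Wnt ligand, fell from 115 and 99.7 to 16.8 and 16.5 FPKM (log2 change −2.62, adjusted p = 9.54e-05). NR2F1, an orphan nuclear receptor, fell from 57.2 and 59.9 to 8.48 and 9.70 FPKM (log2 change −2.56, adjusted p = 0.000261). In these 3 genes the PBS libraries were close to each other and far above both doxorubicin columns. CPLX1, a complexin of the vesicle fusion machinery, fell from 9.68 and 11.9 to 1.06 and 1.24 FPKM (log2 change −2.45, adjusted p = 0.000999), and RPL22L1, a paralogue of ribosomal protein L22, fell from 411 and 434 to 80.2 and 80.9 FPKM (log2 change −2.38, adjusted p = 6.93e-05). FGFBP1, which releases fibroblast growth factors from the matrix, fell from 15.6 and 15.7 to 2.19 and 2.38 FPKM (log2 change −2.34, adjusted p = 0.000209). The immediate early gene FOS was at 222 and 265 FPKM in PBS and 46.6 and 52.6 FPKM in doxorubicin (log2 change −2.27, SE 0.46, adjusted p = 0.0116), and its adjusted p was 0.0528 without PBS replicate 2. CLYBL, a mitochondrial lyase, fell by 2.21 on the log2 scale and KLF2, a Kruppel-like factor, by 2.20. The transcription factor genes MEF2C and PPARG fell by 2.13 and 2.12. LRMDA was uneven in PBS, at 4.74 and 13.1 FPKM, against 0.991 and 1.05 FPKM in doxorubicin (log2 change −2.16, adjusted p = 0.015), and its call was lost with a pseudocount of 0.1 (adjusted p = 0.0528) and with no filter on low values (adjusted p = 0.0511).

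**Figure D2:**
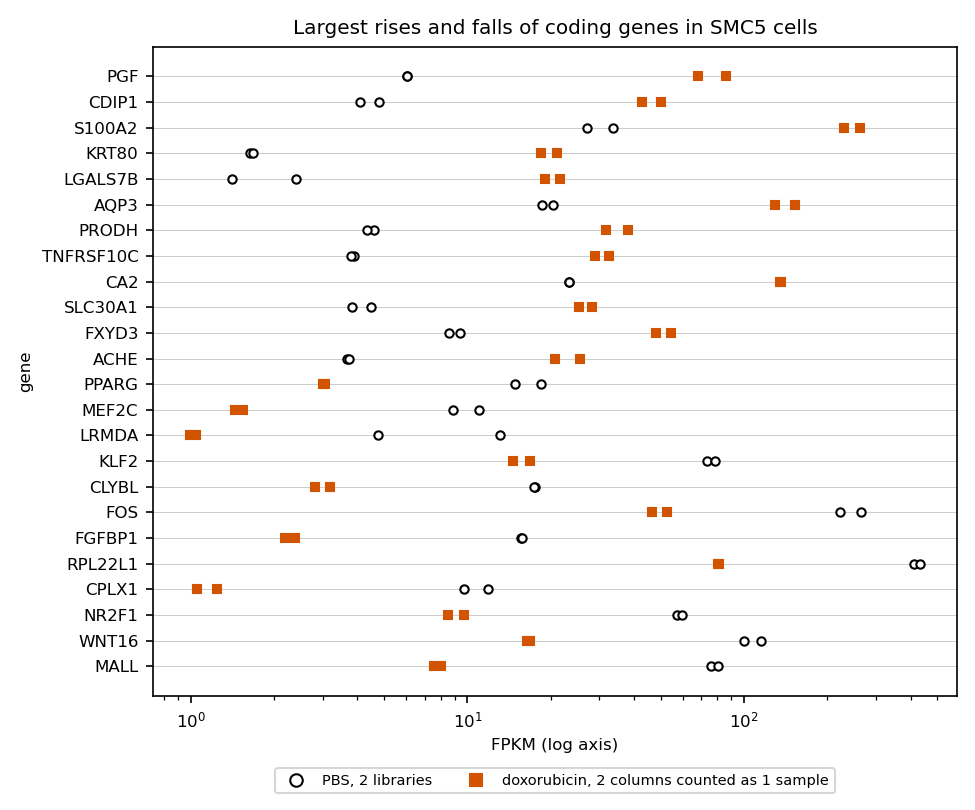
FPKM on a log axis of the 12 coding genes with the largest rises and the 12 with the largest falls, with the 2 PBS libraries as open circles and the 2 doxorubicin columns, counted as 1 sample, as squares. In every gene the squares lie outside the range of the circles, because the rule for choosing these genes required it. The same held for 74.6% of all loci tested. LRMDA has the widest gap between its circles.

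Outside the coding genes the imprinted transcript H19 rose from 3.88 and 3.79 to 119.9 and 140.1 FPKM (log2 change 4.76, SE 0.21, adjusted p = 4.12e-05), further than any coding gene named above. AL139220.2 went from 0.593 and 3.32 to 9.90 and 11.1 FPKM (log2 change 2.13, adjusted p = 0.018), and Z93930.2 from 0.679 and 2.58 to 20.1 and 21.4 FPKM (log2 change 3.15, adjusted p = 0.015). The call of Z93930.2 was lost without PBS replicate 1 (adjusted p = 0.0685), and its log2 change was −0.67 in GFP cells and 0.52 in NSE4 cells. Neither difference from its change in SMC5 cells was called. FAM212A, for which the annotation used here gave no type, rose from 1.78 and 1.61 to 9.38 and 11.8 FPKM (log2 change 2.10, adjusted p = 0.00149). LINC00460, a long intergenic RNA, fell from 15.8 and 14.2 to 2.44 and 2.50 FPKM (log2 change −2.20, adjusted p = 0.000306), and AC011611.3 from 159 and 163 to 42.8 and 51.7 FPKM (log2 change −1.74, adjusted p = 0.000965). AL441992.1 fell by 1.74 on the log2 scale. CDC37L1-AS1 went from 17.8 and 20.4 to 2.77 and 2.85 FPKM (log2 change −2.39, adjusted p = 0.0261), but not past the test without PBS replicate 1 (adjusted p = 0.0778) or replicate 2 (0.0902).

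Genes that p53 is known to switch on rose together in SMC5 cells. Lists of genes by role were drawn up with earlier results of these data known, so their counts describe and do not test them; each is read against the 11% of all loci that rose and the 9.87% that fell. Among p53 and its feedback regulators 3 of 9 loci rose and none fell (median log2 change 0.69). The locus of MDM2, the ubiquitin ligase that degrades p53, also names AC025423.1 and AC025423.2 and rose from 70.8 and 57.2 to 387 and 357 FPKM (log2 change 2.53, SE 0.21, adjusted p = 0.000344). TP53INP1 rose from 17.1 and 15.6 to 67.6 and 64.6 FPKM (log2 change 1.95, adjusted p = 0.000349), and PPM1D, the phosphatase WIP1 that shuts the damage signal off, from 14.6 and 16.1 to 50.5 and 57.8 FPKM (log2 change 1.76, adjusted p = 0.00132).

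Of 12 p53-induced growth arrest loci 6 rose and none fell (median 0.87). CDKN1A, which encodes p21, the inhibitor of cyclin-dependent kinases, rose from 314 and 359 to 987 and 1131 FPKM (log2 change 1.65, SE 0.16, adjusted p = 0.000476). BTG2, an antiproliferative cofactor, rose from 23.02 and 24.2 to 92.3 and 99.4 FPKM (log2 change 1.98, adjusted p = 0.000367). PLK3, a stress-response kinase, rose from 52.96 and 58.03 to 202 and 231 FPKM (log2 change 1.95, adjusted p = 0.000636). SFN, the 14-3-3 sigma protein that holds cyclin B out of the nucleus, rose from 197 and 241 to 627 and 745 FPKM (log2 change 1.65, adjusted p = 0.00123). ZMAT3, an RNA-binding p53 target, rose by 1.23 on the log2 scale.

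The p53 targets in metabolism and antioxidant defence had the highest median of all lists, 1.60, with 11 of 15 loci risen and none fallen. TIGAR, the fructose bisphosphatase that limits glycolysis, has 2 loci in the table. The more abundant rose from 7.47 and 6.95 to 50.9 and 48.8 FPKM (log2 change 2.63, adjusted p = 6.93e-05) and the other from 0.433 and 0.228 to 4.46 and 3.69 FPKM. SESN1, a sestrin that restrains mTORC1, rose from 6.91 and 6.29 to 33.98 and 32.2 FPKM (log2 change 2.17, adjusted p = 0.000117), and SESN2 from 8.25 and 9.04 to 30.6 and 36.05 FPKM (log2 change 1.83, adjusted p = 0.00149). GPX1, a glutathione peroxidase, was the most abundant of these, at 370.4 and 419 FPKM in PBS and 1341 and 1573 FPKM in doxorubicin (log2 change 1.88, adjusted p = 0.000156). FUCA1, a lysosomal fucosidase, rose by 1.60 and the locus of FDXR, ferredoxin reductase, by 1.96. The latter locus also names GRIN2C.

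In the list of p53 death effectors outside the BCL2 family 10 of 13 loci rose and 1 fell (median 1.35). The list also holds the decoy receptor gene TNFRSF10C, so its counts do not describe death-promoting genes alone. The TRAIL receptor locus of TNFRSF10B, shared with AC107959.3, rose from 72.2 and 69.4 to 191 and 212 FPKM (log2 change 1.50, adjusted p = 0.000731), and that of TNFRSF10A, shared with AC100861.2, from 16.8 and 17.8 to 49.5 and 55.3 FPKM (log2 change 1.55, adjusted p = 0.000564). The death receptor locus FAS, shared with AL157394.1, rose from 5.86 and 5.28 to 21.6 and 20.2 FPKM (log2 change 1.74, adjusted p = 0.00152). PIDD1, the scaffold that activates caspase-2, rose from 13.9 and 16.9 to 60.5 and 76.5 FPKM (log2 change 2.09, adjusted p = 0.00163). PERP, a desmosomal protein and p53 target, was the exception and fell from 110.4 and 96.4 to 70.7 and 64.3 FPKM (log2 change −0.60, adjusted p = 0.0168), a call lost without PBS replicate 1 (adjusted p = 0.074).

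Within the BCL2 family the pro-apoptotic genes rose in 4 of 11 loci with none fallen (median 0.57). PMAIP1, which encodes the BH3-only protein NOXA, rose from 54.7 and 51.2 to 153 and 147 FPKM (log2 change 1.49, adjusted p = 0.0002). The locus of BCL2L11 (BIM), shared with ACOXL, rose by 0.88 and BIK by 0.72. BAK1 rose by 0.58, and not past the test without PBS replicate 1 (adjusted p = 0.151) or replicate 2 (0.0512). Of 8 anti-apoptotic loci 1 rose and 2 fell (median −0.02), with fewer calls in each fit without 1 PBS library. The rise was the locus of CFLAR, shared with AC007283.1 (log2 change 0.90). Its call was lost without PBS replicate 1, without replicate 2 and with no filter on low values. BIRC3, an inhibitor of apoptosis, fell from 9.40 and 8.29 to 2.55 and 2.36 FPKM (log2 change −1.51, adjusted p = 0.0101; adjusted p = 0.0504 without PBS replicate 1). BCL2L1, which encodes BCL-XL, fell by 0.51, a call lost without either PBS library (adjusted p of 0.0714 and 0.0851). Among caspases and the apoptosome scaffold 3 of 11 loci rose and none fell, with 1 rise without PBS replicate 2. APAF1, the apoptosome scaffold, rose from 8.85 and 8.83 to 25.02 and 23.3 FPKM (log2 change 1.35, adjusted p = 0.00035).

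Repair genes moved unevenly. Of 21 excision repair and translesion synthesis loci 5 rose and none fell (median 0.34), and 4 of the 5 are known p53 targets. DDB2, the damage sensor of nucleotide excision repair, rose from 37.1 and 33.7 to 134 and 147 FPKM (log2 change 1.96, adjusted p = 0.000269). RRM2B, the p53-inducible ribonucleotide reductase subunit, rose from 31.6 and 25.3 to 129 and 119 FPKM (log2 change 2.09, adjusted p = 0.00033). XPC, another damage sensor, rose from 13.5 and 15.5 to 40.9 and 45.5 FPKM (log2 change 1.52, adjusted p = 0.000546), and POLH, a translesion polymerase, from 8.001 and 9.22 to 25.5 and 25.4 FPKM (log2 change 1.47, adjusted p = 0.000547). Homologous recombination and Fanconi genes rose in 6 of 30 loci and fell in 1 (median 0.42), with 2 rises without PBS replicate 1 and 3 without replicate 2. RAD51C, which acts in strand exchange, moved most, from 43.8 and 43.1 to 197 and 199 FPKM (log2 change 2.16, adjusted p = 0.000117). NBN, the nibrin subunit of the break-sensing MRN complex, fell from 12.5 and 12.5 to 4.99 and 4.55 FPKM (log2 change −1.23, adjusted p = 0.00289). FANCE of the Fanconi core complex rose by 0.86 and the helicase BLM by 0.98, the latter not past the test without PBS replicate 1 (adjusted p = 0.0556) or replicate 2 (0.0894).

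Of 10 loci for non-homologous end joining none rose and 1 fell, XRCC4, which passed the test in neither fit without a PBS library (adjusted p of 0.056 and 0.0757). XRCC6, the Ku70 subunit, was at 222 and 243 FPKM and then 169 and 182 FPKM (log2 change −0.40, adjusted p = 0.0751). Checkpoint kinases and CDC25 genes gave 2 rises and 2 falls among 18 loci, and none of these 4 calls remained without PBS replicate 1 or without replicate 2. Topoisomerases, of which doxorubicin traps type II, gave 1 fall among 8 loci with tyrosyl-DNA phosphodiesterases counted in. The locus of TOP2B, shared with MIR4442, fell from 24.5 and 22.4 to 13.2 and 12.01 FPKM (log2 change −0.84, adjusted p = 0.00773). TOP1 stood at 84.4 and 79.8 FPKM and then 73.7 and 72.6 FPKM, not past the test (log2 change −0.16, adjusted p = 0.277).

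Enzymes and pumps that handle anthracyclines changed in a few members. Aldo-keto and carbonyl reductases can reduce doxorubicin to its alcohol. In their list, which also holds NQO1 and the locus of POR, 3 of 11 loci rose and 1 fell, with fewer calls without PBS replicate 2. AKR1B10 rose from 0.406 and 0.454 to 11.7 and 12.1 FPKM (log2 change 3.17, SE 0.20, adjusted p = 0.000156), and since its PBS values lie under 1 FPKM the log2(FPKM + 1) change understates the fold. AKR1B1 and CBR3 passed with changes of 0.41 and 0.66, and neither passed without PBS replicate 2 (adjusted p of 0.0771 and 0.0931), nor AKR1B1 without replicate 1 (0.16). ABC efflux transporters gave 3 rises and 1 fall among 13 loci, and 1 rise and no fall without PBS replicate 1. ABCC5, an organic anion pump, rose from 7.91 and 7.69 to 15.9 and 17.6 FPKM (log2 change 1.01, adjusted p = 0.00474). The other rises were ABCC2 and the joint locus of ABCB6 and ATG9A, which also counts in the autophagy list. The fall was ABCC4. The loci of ABCC1, ABCG2 and ABCB1, the last shared with ABCB4, did not pass the test.

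Genes of DNA synthesis rose in part of their list. In the fit used for the calls, falls among mitotic genes were about as frequent as among all loci. All 28 E2F-driven G1/S and replication loci had a log2 change above zero (median 0.69), and 9 of them passed the test. Without PBS replicate 1 that number was 2 and without replicate 2 it was 3. PCNA, the sliding clamp and also a p53 target, rose from 96.5 and 100.3 to 485 and 488 FPKM (log2 change 2.29, SE 0.25, adjusted p = 0.000788). RRM1, the large ribonucleotide reductase subunit, rose from 23.8 and 21.9 to 62.1 and 58.3 FPKM (log2 change 1.36, adjusted p = 0.0059). TK1, thymidine kinase, rose by 1.02 and E2F2 by 1.17, but neither passed without PBS replicate 1 (adjusted p of 0.131 and 0.168), nor E2F2 without replicate 2 (0.0665). CCNE2, cyclin E2, went from 3.87 and 3.96 to 15.7 and 13.3 FPKM (log2 change 1.65, adjusted p = 0.0143), with adjusted p of 0.0578 and 0.0529 without PBS replicate 1 or 2.

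Of 34 G2/M and mitotic loci 4 fell, a share near the 9.87% of all loci, and 2 rose (median −0.27). KIF20A, a kinesin of cytokinesis, fell from 22.9 and 24.5 to 10.1 and 10.4 FPKM (log2 change −1.14, adjusted p = 0.00133). CDC20, the activator of the anaphase-promoting complex, fell from 113 and 121 to 52.7 and 59.03 FPKM (log2 change −1.06, adjusted p = 0.00192). The spindle checkpoint kinase BUB1 fell by 0.62 and the centromere protein CENPF by 0.84, the latter not past the test without PBS replicate 1 (adjusted p = 0.0677). ZWILCH and KNTC1, which belong to the RZZ complex of the outer kinetochore, were the 2 that rose, ZWILCH from 7.60 and 6.42 to 16.1 and 14.7 FPKM (log2 change 1.04, adjusted p = 0.00289) and KNTC1 from 11.1 and 8.07 to 22.4 and 20.5 FPKM (log2 change 1.10, adjusted p = 0.0103). The ZWILCH effect was 1.28 in GFP cells and 0.09 in NSE4 cells, and its difference between backgrounds was not called. With GC-adjusted values, median-of-ratios scaling or quantile normalization, 7 loci of this list fell. Over all loci tested, falls in the same fits numbered 2175 of 15289, 2001 of 15833 and 1957 of 15833. Each of these is a smaller share than 7 of 34. In the cyclin D, CDK4/6 and RB list 4 of 15 loci rose and 2 fell, with 1 fall in each fit without 1 PBS library. CCND3, cyclin D3, rose from 25.8 and 30.2 to 64.9 and 74.01 FPKM (log2 change 1.29, adjusted p = 0.00125), while CDKN2A, the p16 and p14ARF locus, fell from 50.99 and 61.8 to 16.7 and 19.9 FPKM (log2 change −1.56, adjusted p = 0.0035). Replication-dependent histone genes gave 1 rise and 2 falls among 16 loci (1 fall in each fit without 1 PBS library), with poly(A) selection of these mostly non-polyadenylated mRNAs not stated.

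Promoters of the replication and mitotic lists are known to carry E2F and CHR sites, the elements through which p21 and the DREAM repressor complex act. RefSeq windows of 300 bases (250 before and 50 after the annotated start, GRCh38.p14) were matched by symbol for 7312 of the 11835 single-name loci tested and searched on both strands. The E2F-type string TTCCCGC was in 10.5% of all windows and in 8 of 17 windows of the replication list. It was also in 8 of 17 windows of the homologous recombination and Fanconi list. Of loci that rose 10.9% held it, and of loci that fell 9.67%. The CHR string TTTGAA was in 9.48% of all windows and in 14 of 19 windows of the mitotic list, and CCAAT was in 36.5% of all windows and in 15 of those 19. Only 3 mitotic loci that fell had a window, and 1 of the 3, CDC20, held TTTGAA. Of loci that fell 10.6% held TTTGAA, and of loci that rose 8.08%. The stretch of the CDC20 promoter, on the plus strand at chr1:43358904-43358933, is shown for its CHR string, in capitals, with the sequence 5′ to 3′.
CDC20: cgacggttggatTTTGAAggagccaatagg
A match describes these letters only, and no binding was measured.

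Lipid synthesis genes fell as a group. Of 25 cholesterol synthesis loci 18 fell and none rose (median −0.99), and 13 fell without PBS replicate 1 and 14 without replicate 2. These genes are switched on by SREBP2 when membrane sterol is low. HMGCS1, the synthase that begins the mevalonate pathway, fell from 125 and 115 to 42.5 and 41.1 FPKM (log2 change −1.49, SE 0.12, adjusted p = 0.00033). IDI1, the isopentenyl isomerase, fell from 113 and 108 to 40.1 and 39.6 FPKM (log2 change −1.44, adjusted p = 0.000269). SQLE, squalene epoxidase, fell from 56.5 and 54.8 to 20.8 and 21.6 FPKM (log2 change −1.35, adjusted p = 0.000383), and DHCR7, which reduces the immediate precursor of cholesterol, from 129 and 135 to 47.1 and 52.3 FPKM (log2 change −1.39, adjusted p = 0.000429). SREBF2, which encodes SREBP2, fell from 87.3 and 90.7 to 44.5 and 50.4 FPKM (log2 change −0.89, adjusted p = 0.00466), and the more abundant locus of its retention factor INSIG1 from 141 and 144 to 48.9 and 50.6 FPKM (log2 change −1.50, adjusted p = 0.00217).

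Of 11 fatty acid synthesis loci 7 fell and 1 rose (median −0.82). The locus of SCD, stearoyl-CoA desaturase, shared with AL139819.1, fell from 690.3 and 652 to 146 and 147 FPKM (log2 change −2.19, adjusted p = 0.000156). The locus of FASN, fatty acid synthase, shared with CCDC57, fell from 369.9 and 434 to 116 and 133 FPKM (log2 change −1.68, adjusted p = 0.000415). ACSS2, which makes acetyl-CoA from acetate, fell from 59.6 and 59.6 to 20.3 and 22.2 FPKM (log2 change −1.44, adjusted p = 0.0013), and the elongase ELOVL6 from 52.8 and 51.8 to 24.3 and 24.3 FPKM (log2 change −1.07, adjusted p = 0.0019). The 1 rise was a locus that names both FADS2 and the flap endonuclease FEN1, a replication gene, so its reads cannot be assigned to either, and it did not pass without PBS replicate 1 (adjusted p = 0.0873) or replicate 2 (0.0536).

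Sterol gene promoters pair SREBP sites with a CCAAT box bound by NF-Y. CCAAT was in 10 of the 12 windows matched in the cholesterol list, against 36.5% of all windows, and the sterol element string TCACCCC was in 2 of 12, against 5.53%. Over all loci that fell, CCAAT was in 34.7% of windows and TCACCCC in 4.13%, against 38.5% and 7.13% for loci that rose. CCAAT was also in 12 of 14 windows of the unfolded protein response list, in which no locus fell. Stretches of 30 bases are shown, 5′ to 3′ in the direction of the gene, for 3 of the fallen genes with a CCAAT box before the start, in capitals (ATTGG where it lies on the other strand). HMGCS1 is at chr5:43313495-43313524 and DHCR7 at chr11:71448424-71448453, both on the minus strand, and MSMO1 at chr4:165327623-165327652 on the plus strand.
HMGCS1: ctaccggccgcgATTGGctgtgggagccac
DHCR7: ggtccgcctccgATTGGcaggcaatcgctg
MSMO1: agctctcgcaggCCAATaacgacaggacgg

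Cytosolic ribosomal protein genes fell almost throughout. Of 46 loci 40 fell, 1 rose and 5 did not pass the test (median −0.75), with 34 falls without PBS replicate 1 and 33 without replicate 2. RPS14, of the small subunit, fell from 1102 and 1124 to 447 and 465 FPKM (log2 change −1.28, SE 0.10, adjusted p = 0.000269). RPLP0, of the ribosomal stalk, fell from 2151 and 2287 to 966 and 1055 FPKM (log2 change −1.13, adjusted p = 0.000404). The most abundant of the single-name loci, RPS18, fell from 4857 and 4964 to 2483 and 2645 FPKM (log2 change −0.94, adjusted p = 0.000476), RPL13 from 4267 and 4908 to 1774 and 2068 FPKM (log2 change −1.25, adjusted p = 0.000506), and RPS16 from 3049 and 3479.9 to 1191 and 1388 FPKM (log2 change −1.34, adjusted p = 0.000657). RPL3, whose locus also holds SNORD43 and SNORD83B, fell from 1880.3 and 2048 to 608 and 679 FPKM (log2 change −1.61, adjusted p = 0.000221). RPS27L, a paralogue of RPS27 that p53 induces, was the 1 rise, from 133 and 132 to 288 and 273 FPKM (log2 change 1.08, adjusted p = 0.0006). Reads from these genes can be shared with their many processed pseudogenes. The list depended on scaling. Under quantile normalization 24 loci fell and 3 rose (median −0.32). There RPS19, at a log2 change of −0.14 in the FPKM as deposited, rose by 0.59, and the RPS15 locus, at −0.18, rose by 0.37. Loci of high level in general fell more often, as given above, and the part of abundance in this list was not tested.

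Ribosomal protein mRNAs are known to begin with a run of pyrimidines, the terminal oligopyrimidine tract through which mTOR controls their translation. Of 23 ribosomal protein loci with a RefSeq window 16 began with a run of at least 5 C or T bases, and of the 18 that fell 13 did. The same was found in 5.33% of all 7312 windows, in 3.8% of those of risen loci and in 10.6% of those of fallen loci, or 9.28% without the ribosomal list. This measure was added after the values had been seen. The 15 bases before and 15 after the start are shown 5′ to 3′ for 5 fallen loci with such a run, in capitals, for RPL13, which fell with a run of only 2, and for RPS27L, which rose and has none at its start. The minus strand holds RPS14 (chr5:150449725-150449754), RPLP0 (chr12:120201097-120201126), RPS16 (chr19:39435935-39435964), RPL22L1 (chr3:170870181-170870210) and RPS27L (chr15:63157463-63157492). The plus strand holds RPS18 (chr6:33272060-33272089) and RPL13 (chr16:89560642-89560671).
RPS14: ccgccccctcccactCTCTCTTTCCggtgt
RPLP0: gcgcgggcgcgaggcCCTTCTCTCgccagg
RPS18: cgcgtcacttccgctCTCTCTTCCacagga
RPS16: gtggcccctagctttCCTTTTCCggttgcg
RPL22L1: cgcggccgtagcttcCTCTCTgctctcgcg
RPL13: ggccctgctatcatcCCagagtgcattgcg
RPS27L: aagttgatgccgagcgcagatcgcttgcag
These 7 were chosen by hand from the windows and carry no statistic of their own.

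Of 24 loci of ribosome assembly 3 fell and 1 rose (median −0.08), with no rise in either fit without 1 PBS library. NPM1, nucleophosmin, fell from 669.5 and 661 to 397 and 411 FPKM (log2 change −0.72, adjusted p = 0.00249), and FBL, the rRNA methyltransferase fibrillarin, fell by 0.57. All 10 mitochondrially encoded mRNA loci had log2 changes above zero (median 0.36), and 1 passed the test, MT-ND6, at 6712 and 5995 FPKM and then 8182 and 8953 FPKM (log2 change 0.43, adjusted p = 0.0322). Its call was lost without PBS replicate 1 (adjusted p = 0.0512) and without replicate 2 (0.128), and under quantile normalization 3 other loci of this list rose. The locus of MT-ATP6 took 27.3% and 19.1% of all FPKM in the PBS libraries and 27.5% and 24.2% in the doxorubicin columns, so the PBS libraries differed from each other more than the doxorubicin columns did. Glycolysis gave 5 falls and no rise among 19 loci (median −0.24), with 2 and 3 falls without PBS replicate 1 or 2. ENO1, enolase, fell from 1813 and 1723 to 952 and 1061 FPKM (log2 change −0.81, adjusted p = 0.00347). GAPDH fell by 0.69, and not past the test under quantile normalization (adjusted p = 0.405), where 4 other loci of this list rose, ALDOA among them.

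Growth factor signalling outputs changed in both directions. Of 18 ERK feedback and output loci 9 fell and 3 rose (median −0.59), with 3 falls and 2 rises without either PBS library. DUSP6, the phosphatase that switches ERK off, fell from 186 and 168 to 62.4 and 63.8 FPKM (log2 change −1.47, SE 0.13, adjusted p = 0.000358). The more abundant PHLDA1 locus fell from 124 and 113 to 38.6 and 36.3 FPKM (log2 change −1.63, adjusted p = 0.000265). EPHA2, an ephrin receptor, and ETV4, an ETS factor, rose by 1.10 and 0.82. Among AP-1, EGR and other immediate early genes 7 of 20 loci fell and 4 rose (median −0.36). Without PBS replicate 1 the rises numbered 2, and without replicate 2 there were 2 falls and 2 rises. MYC fell from 181 and 189 to 104 and 114 FPKM (log2 change −0.76, adjusted p = 0.00554), and JUNB from 313 and 364 to 168 and 191 FPKM (log2 change −0.91, adjusted p = 0.0144; adjusted p = 0.065 without PBS replicate 2). The locus of ZFP36, an mRNA decay factor, shared with PLEKHG2, fell from 187 and 216 to 54.7 and 59.4 FPKM (log2 change −1.80, adjusted p = 0.00631). CTGF, a matricellular target of YAP, went the other way, from 5.59 and 6.29 to 28.1 and 30.5 FPKM (log2 change 2.13, adjusted p = 0.000998), and IER5 rose by 0.85.

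Kruppel-like factors fell in 5 of 13 loci and rose in none (median −0.60). KLF4, which drives epithelial differentiation, fell from 61.6 and 59.2 to 22.8 and 24.7 FPKM (log2 change −1.31, adjusted p = 0.00184), KLF6 from 76.1 and 65.6 to 30.6 and 30.6 FPKM (log2 change −1.18, adjusted p = 0.0058), and KLF9 by 1.09 on the log2 scale. The EGFR family list had 2 rises and 2 falls among 11 loci, with 1 fall in each fit without 1 PBS library and 1 rise without replicate 2. HBEGF, an EGFR ligand, rose from 8.09 and 7.60 to 22.3 and 24.1 FPKM (log2 change 1.45, adjusted p = 0.00243), while ERRFI1, an inhibitor of EGFR, fell from 614 and 516 to 316 and 309 FPKM (log2 change −0.85, adjusted p = 0.00773). The other rise and the other fall were 2 loci that both carry the name EGFR. Without PBS replicate 2 their log2 changes were 0.85 and −0.67. Neither call was stable, and EGFR itself has no single direction here. Wnt genes gave 6 falls and 2 rises among 19 loci. SOX4 fell from 55.6 and 58.8 to 18.9 and 20.8 FPKM (log2 change −1.48, adjusted p = 0.000731) and the Wnt antagonist DKK1 from 459.7 and 445 to 229.8 and 228 FPKM (log2 change −0.98, adjusted p = 0.00195). WNT11 rose from 1.82 and 1.83 to 6.14 and 7.50 FPKM (log2 change 1.47, adjusted p = 0.00908).

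Epithelial genes changed in both directions. Of 8 keratin loci 5 rose and 1 fell (median 1.14), with 3 rises without PBS replicate 1 and no fall without replicate 2. KRT20, a marker of mature colonocytes, rose from 1.03 and 1.11 to 5.94 and 5.88 FPKM (log2 change 1.74, adjusted p = 0.000807), and KRT23 from 12.1 and 12.6 to 27.5 and 28.999 FPKM (log2 change 1.13, adjusted p = 0.00103). Claudins and junction genes fell in 6 of 18 loci and rose in 1, with no rise in either fit without 1 PBS library. CLDN3 fell from 23.96 and 24.2 to 10.7 and 12.9 FPKM (log2 change −0.97, adjusted p = 0.0056), and TJP3, a tight junction scaffold, from 45.99 and 51.2 to 25.7 and 29.7 FPKM (log2 change −0.79, adjusted p = 0.00356). Of 15 contractile and mesenchymal loci 3 rose and 1 fell, with no fall in either such fit. ACTA2, smooth muscle actin and a neighbour of FAS, rose from 4.27 and 4.65 to 18.9 and 20.03 FPKM (log2 change 1.91, adjusted p = 0.0002).

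Immune and stress lists were mixed. Of 28 interferon-stimulated loci 7 rose and 4 fell (median 0.15), with 4 rises and 2 falls without PBS replicate 1 and 5 and 2 without replicate 2. OASL rose from 11.9 and 14.5 to 28.4 and 32.1 FPKM (log2 change 1.14, adjusted p = 0.00428) and HERC5, the ISG15 ligase, from 8.30 and 8.41 to 16.7 and 16.2 FPKM (log2 change 0.90, adjusted p = 0.00292), while IFI44 fell from 10.4 and 9.89 to 4.53 and 4.37 FPKM (log2 change −1.04, adjusted p = 0.00886). MHC class I presentation gave 3 rises and no fall among 13 loci. The peptide transporter TAP1 rose from 35.7 and 35.8 to 72.04 and 84.2 FPKM (log2 change 1.11, adjusted p = 0.000824), and the joint locus of HLA-B and HLA-C, near-identical genes whose reads can be shared, from 2058 and 2145 to 3834 and 4166 FPKM (log2 change 0.93, adjusted p = 0.00277). In the NF-kB list 2 of 17 loci rose and 2 fell (median −0.20), and only 4 of the 17 had a log2 change above zero. The falls were CXCL1 (log2 change −1.26) and NFKBIA, and neither call held without PBS replicate 2. GDF15, a stress cytokine that p53 also induces, rose from 542 and 622 to 1986 and 2419 FPKM (log2 change 1.92, adjusted p = 0.00162), and ICAM1, an adhesion molecule, from 1.57 and 0.936 to 6.46 and 7.03 FPKM (log2 change 1.80, adjusted p = 0.00348).

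Heat shock genes gave 5 rises and 5 falls among 19 loci, with 2 rises and 3 falls without PBS replicate 1 and 2 of each without replicate 2. HSPB1, the small heat shock protein, rose from 464 and 501 to 918 and 1059 FPKM (log2 change 1.03, adjusted p = 0.00132), and HSP90AA1 fell from 537 and 532 to 318 and 322 FPKM (log2 change −0.74, adjusted p = 0.00155). ATF4 targets gave 3 rises and 3 falls among 17 loci, the unfolded protein response 1 rise among 15 (none without PBS replicate 1), and the NRF2 list 3 rises and 2 falls among 17 (1 fall without PBS replicate 1). ATF4 itself fell from 239 and 267 to 152 and 163 FPKM (log2 change −0.68, adjusted p = 0.015; adjusted p = 0.0663 without PBS replicate 2). HMOX1, heme oxygenase, rose from 13.5 and 15.99 to 27.3 and 31.6 FPKM (log2 change 0.95, adjusted p = 0.0089), and PRDX1, a peroxiredoxin, from 891 and 957 to 1452 and 1525 FPKM (log2 change 0.69, adjusted p = 0.00208). Of 18 autophagy loci 6 rose and none fell (median 0.08), with 2 rises without PBS replicate 1. MAP1LC3B, which encodes the autophagosome protein LC3B, rose from 51.02 and 52.7 to 85.7 and 85.1 FPKM (log2 change 0.71, adjusted p = 0.00305). ATG7, which activates LC3 for conjugation, rose from 9.12 and 10.5 to 17.4 and 18.6 FPKM (log2 change 0.82, adjusted p = 0.0085), with effects of 0.11 in GFP cells and 0.15 in NSE4 cells. The difference between backgrounds was called for no locus of the autophagy list, ATG7 included.

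**Figure D3:**
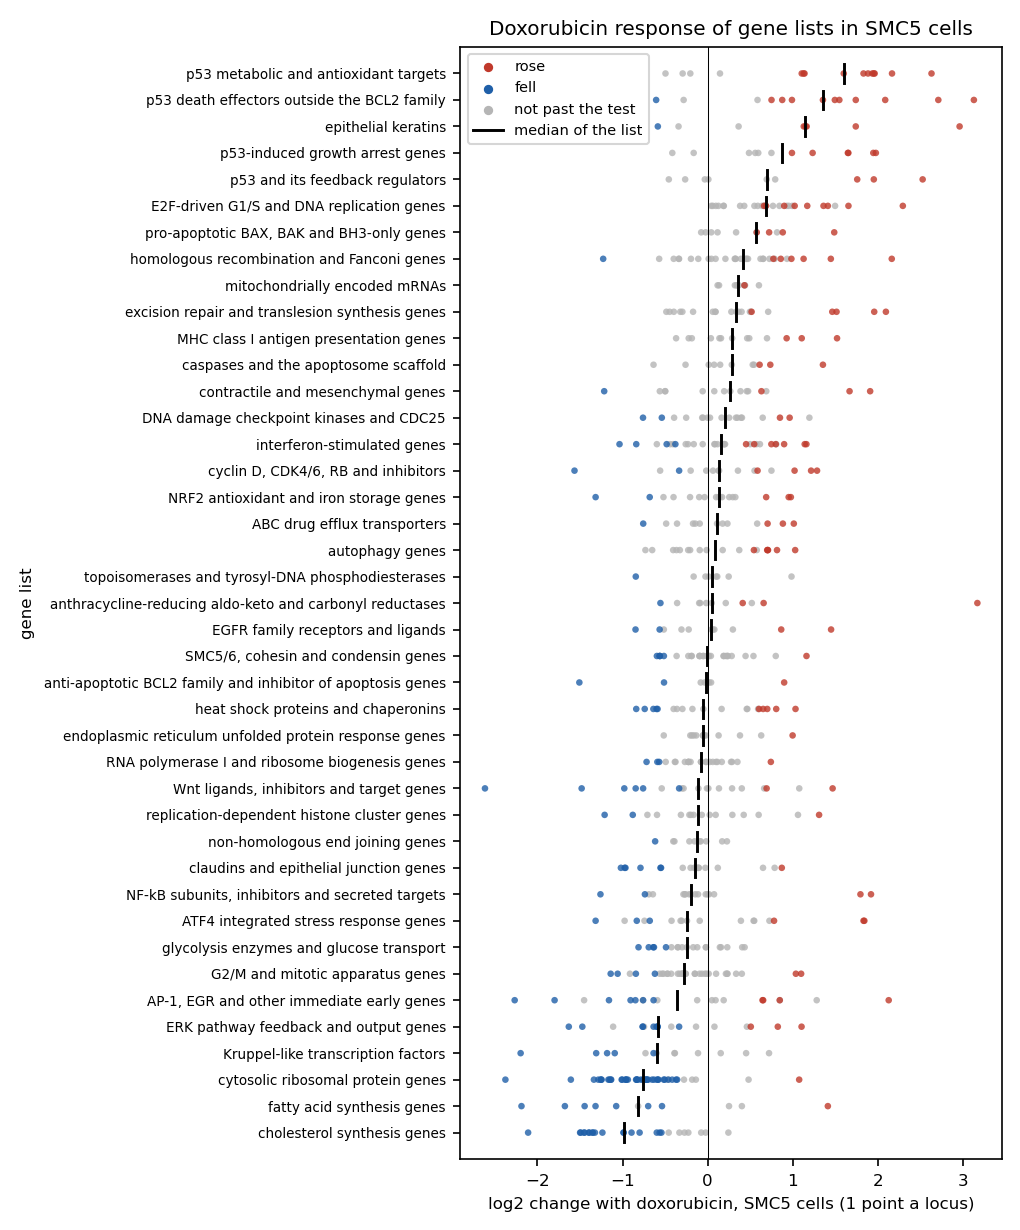
Log2 change with doxorubicin in SMC5 cells for each locus of 41 gene lists, 1 list a line, sorted by the median (black bar). Red points rose, blue points fell and grey points did not pass the test. The p53 lists and keratins lie at the top with medians of 0.69 to 1.60, and ribosomal proteins, fatty acid and cholesterol synthesis at the bottom with medians of −0.75 to −0.99.

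Some abundant genes hardly moved. PSMD13, a proteasome lid subunit, was at 129 and 141 FPKM and then 129 and 141 FPKM, a log2 change of 0.00 with an SE of 0.19. The splicing factor RBM39 was at 106 and 99.3 FPKM and 101 and 104 FPKM (log2 change 0.00), and the mRNA export factor ALYREF at 101 and 105 FPKM and 92.8 and 113 FPKM (log2 change 0.00, SE 0.31).

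Markers of colorectal epithelium summed over 10 loci to 3549 and 3914 FPKM in the PBS libraries and 3531 FPKM in doxorubicin, most of it from the keratins KRT8, KRT18 and KRT19. EPCAM and CDH1 were present in all 4 columns, CDX1 and TFF3 were at 0, and the joint CEACAM5 and CEACAM6 locus was at most 0.0411 FPKM. VIL1, which encodes villin, was at 0.0324 and 0.126 FPKM in PBS and 1.63 and 1.91 FPKM in doxorubicin (log2 change 1.36, adjusted p = 0.0143, or 0.056 without PBS replicate 1). Of 10 blood marker loci 7 were under 1 FPKM, with CD3E, CD3D, MS4A1 and HBB at 0, and the summed level of 686 to 698 FPKM in PBS and 727 FPKM in doxorubicin came almost wholly from loci that also name EIF4A1 and NDUFA2. Fibroblast and endothelial markers summed to 18.3 and 25.9 FPKM in PBS and 24.6 FPKM in doxorubicin, with LUM at 0, and hepatocyte and neural markers to 275 and 309.9 FPKM in PBS and 247 FPKM in doxorubicin, with TTR at 0 and nearly all of the sum from the TUBB3 locus, which also names DEF8 and TCF25. Among these other lineages the globin gene HBA1 rose from 0.799 and 0.971 to 3.45 and 3.84 FPKM (log2 change 1.30, adjusted p = 0.00759). RBFOX3, a neuronal splicing factor, passed the test (log2 change 0.80, adjusted p = 0.0361), but not without either PBS library (0.0944 and 0.0946). The part of these markers in the results was not tested.

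The response in SMC5 cells was then set beside that of the control-plasmid and NSE4 cells, to ask whether SMC5 overexpression altered it. The log2 change in SMC5 cells minus that in GFP cells was called at 3 of 15833 loci (0.0189%, with 440, or 2.78%, at an unadjusted p under 0.05). Minus that in NSE4 cells it was called at 4 loci (0.0253%, with 387, or 2.44%). These counts depend on the filter on low values. The filter used takes the doxorubicin columns of SMC5 cells as 1 of 11 samples, so a locus at 1 FPKM only there was not tested. With 1 FPKM asked for in 2 of the 4 SMC5 columns the counts were 75 and 79, all of them positive differences. With no filter they were 431 and 466, of which 400 and 412 were positive. None of these effects shares a sample with the one it is set against, but both differences use the same SMC5 columns. The median SE of a difference was 0.26, and differences well above that could miss the threshold over all loci, as those of PPARG and LINC00460 described below did. Of the 1747 risen loci 1539 also rose in GFP cells (88.1% of the SMC5 list and 57.2% of the GFP list of 2691, which is 17% of loci tested). Of the 1563 fallen loci 1376 also fell there (88.0% and 61.8% of 2228, 14.1% of loci). With NSE4 cells the shared rises numbered 1546 (88.5% and 60.0% of 2575, 16.3% of loci) and the shared falls 1401 (89.6% and 63.5% of 2205, 13.9% of loci). The lists were not made with equal precision. Doxorubicin had n = 1 in SMC5 cells and n = 2 in the others, and the median SE was 0.20 against 0.17. A locus called only in GFP or NSE4 cells is therefore not one shown to lack the response in SMC5 cells. Across all loci tested the effects in SMC5 and GFP cells had a Pearson r of 0.711 and a Spearman rho of 0.789, and those in SMC5 and NSE4 cells 0.703 and 0.793. These describe loci measured in the same libraries, not replicates. Among the 3310 called loci the median ratio of the GFP to the SMC5 effect was 0.937 and that of the NSE4 to the SMC5 effect 0.948, for loci picked because they passed in SMC5 cells.

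**Figure D4:**
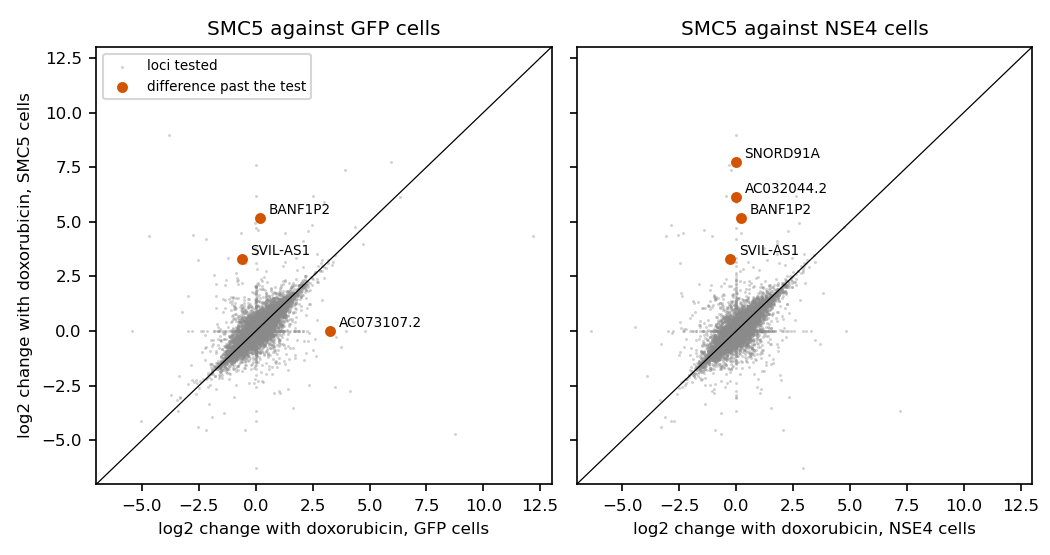
Log2 change with doxorubicin of each locus tested in SMC5 cells (y axis) against that in GFP cells (left) or NSE4 cells (right), with the line of equal change. Orange points mark the 3 and 4 loci at which the difference passed the test, and most other loci lie along the line.

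For genes of the p53 response the effects in the 3 backgrounds were compared directly. The CDKN1A effect was 1.65 in SMC5 cells, 1.61 in GFP cells and 1.68 in NSE4 cells, and the SMC5 minus GFP difference was 0.04 (95% interval −0.42 to 0.50). For the MDM2 locus it was 0.34 (95% interval −0.28 to 0.97) against GFP and 0.31 (95% interval −0.32 to 0.93) against NSE4 cells, for GDF15 0.05 (95% interval −0.67 to 0.77) against GFP cells, and for PCNA 0.09 (95% interval −0.64 to 0.82). These intervals do not show that the effects were equal, only that larger differences were not seen. RPS14 and HMGCS1 had narrower intervals against GFP cells, 0.00 (95% interval −0.30 to 0.30) and 0.10 (95% interval −0.26 to 0.46). Of the 36 genes in the plot of differences, 35 had an interval against GFP cells that included zero and 36 against NSE4 cells. The exception was PPARG, with effects of −2.12 in SMC5 and −1.48 in GFP cells and a difference of −0.64 (95% interval −1.21 to −0.08) that did not pass over all loci (adjusted p = 1). List medians were close to each other, for example 1.60, 1.57 and 1.65 for p53 metabolic targets and −0.99, −0.87 and −0.98 for cholesterol synthesis in SMC5, GFP and NSE4 cells. LINC00460 differed in the same sense, by −1.05 (95% interval −1.57 to −0.52) from GFP and −0.71 (95% interval −1.23 to −0.19) from NSE4 cells, neither past the test (adjusted p = 1).

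**Figure D5:**
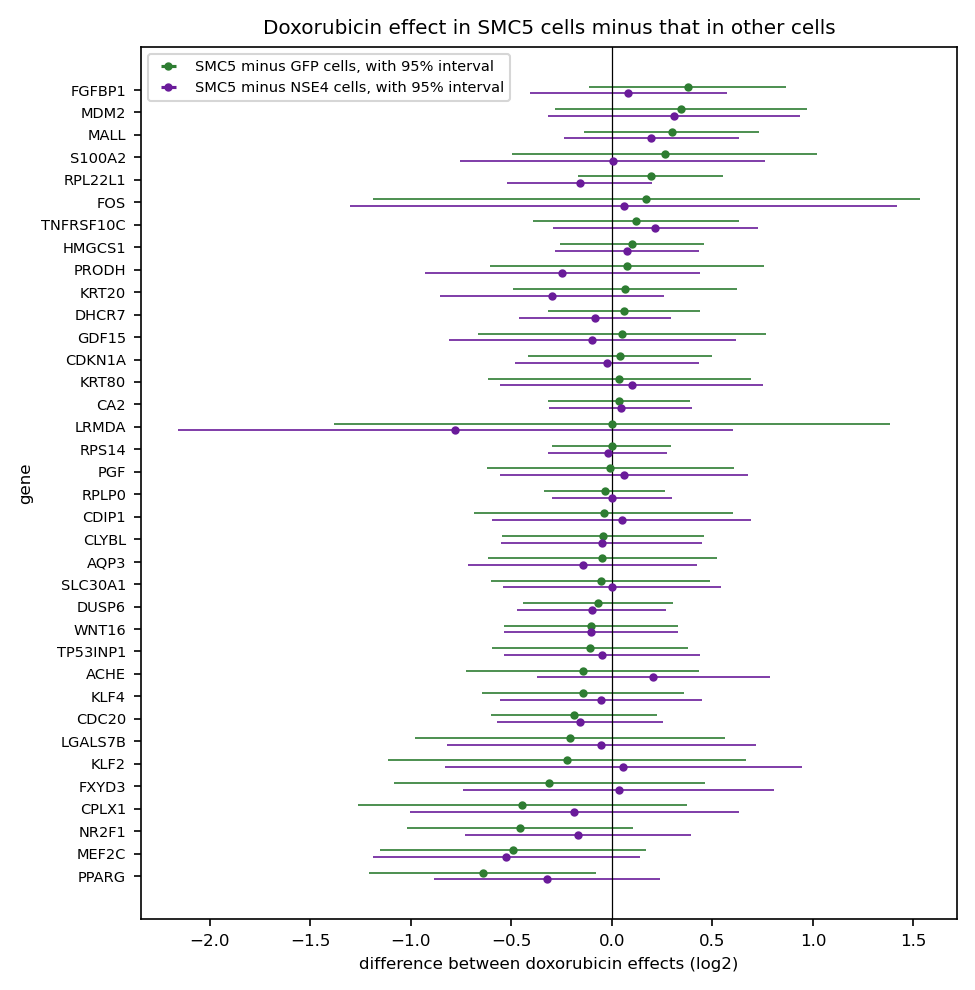
Difference between the log2 effect of doxorubicin in SMC5 cells and that in GFP cells (green) or NSE4 cells (purple) for the 24 coding genes of largest change and 12 genes described in the text, with 95% intervals from limma. Of the 36 intervals against GFP cells 35 include zero, PPARG being the exception, and all 36 against NSE4 cells do.

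The loci that did differ were mostly noncoding. The locus of AL360181.1 and the pseudogene BANF1P2 stood at 0.690 and 1.22 FPKM in PBS and 65.9 and 70.1 FPKM in doxorubicin, against 1.053 to 1.59 FPKM in all 8 libraries of the other cells. Its difference was 4.95 from GFP cells (adjusted p = 0.000934) and 4.95 from NSE4 cells (adjusted p = 0.000382). A locus named SVIL-AS1, 1 of 2 of that name, rose from 10.7 and 13.2 to 117 and 134 FPKM, while GFP cells went from 12.1 and 12.97 to 7.08 and 8.73 FPKM and NSE4 cells from 12.2 and 11.9 to 8.97 and 11.1 FPKM. Its differences were 3.91 (adjusted p = 0.000934) and 3.55 (adjusted p = 0.00102). SNORD91A, a small nucleolar RNA, was listed at 0 in both PBS libraries and at 217 and 211 FPKM in doxorubicin. It was at 69.2 and 53.3 FPKM in doxorubicin-treated GFP cells and at 0 in all 4 NSE4 libraries (SMC5 minus NSE4 adjusted p = 8.72e-06). AC032044.2 was listed at 0 in PBS and at 68.3 and 69.6 FPKM in doxorubicin, with 89.1 and 70.6 FPKM in treated GFP cells and 0 in all NSE4 libraries (adjusted p = 2.50e-05 against NSE4). AC073107.2 was listed at 0 in all SMC5 columns and so lies outside the rule for these cells; it reached 9.64 and 7.75 FPKM in treated GFP cells (adjusted p = 0.0204 against GFP). A value listed at 0 in such a table can be a failed estimate. All of these rest on the 2 doxorubicin columns that count as 1 sample, and whether they would recur in a separate culture was not tested.

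Below the threshold, the joint locus of AC011471.1 and RFX2, a transcription factor of ciliated cells, went from 6.17 and 6.33 to 47.97 and 54.7 FPKM in SMC5 cells and from 5.91 and 9.98 to 8.84 and 7.36 FPKM in GFP cells (difference 2.79, adjusted p = 0.189).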

How the data were processed

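Messenger RNA was sequenced, and the deposited table gives FPKM values per locus; TopHat and Cufflinks are the tools in the submitters' processing notes, and versions and genome build are not given in the sources used here. All 12 columns were used. The mean of the 2 doxorubicin columns of SMC5 cells entered as 1 sample, which left 11 samples. Loci with an FPKM of 1 or more in at least 2 samples were kept (15833) and log2(FPKM + 1) was fitted with limma 3.58.1 in R 4.3.3, using 1 fit for the 6 groups, an intensity trend and 5 residual degrees of freedom. Tests were two-sided, with Benjamini-Hochberg adjustment over all loci tested and a threshold of 0.05. On this scale the change of a locus with low FPKM is understated. The code was tested on simulated data.

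The members, gene lists and rules were chosen with earlier results of these data known. Genes named are the SMC5/6 subunits, CDKN1A and MDM2, the 12 largest rises and falls of called single-symbol coding loci without overlap whose means reach 1 FPKM in both groups, the 4 largest noncoding ones, up to 4 members of smallest p and called members of each list, every called difference between backgrounds with the next 5, and the 5 abundant loci of change nearest to zero. For the last rule, 1 locus listed at 0 in SMC5 cells is not described. Some genes that these rules give are not reported here. A locus naming several genes counts once in each list that holds one of them.

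Gene types and GC content came from GENCODE 29 by symbol, promoter windows from RefSeq (GRCh38.p14), and no coordinates came from the files. Depth, read from the steps between low FPKM, was 12.7 to 19.3 M fragments per library. The median SE of a log2 change was 0.20. Alternatives were 2 scalings, 3 filters, a pseudocount of 0.1, a fit of only the groups compared, a replicate block, the 12 columns as separate samples, GC-adjusted values, and leaving out each library. Python 3.11.15 with numpy 2.4.6, matplotlib 3.10.9 and pandas 2.3.3 made the tables and figures.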

Additional observations from a re-analysis of the deposited data

Results flagged for a closer look

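At 5 loci the doxorubicin effect in SMC5 cells differed from that in other cells by the interaction test over all loci. Against GFP cells the log2 difference was 4.95 at the locus of AL360181.1 and BANF1P2, 3.91 at a locus named SVIL-AS1 and −3.27 at AC073107.2, which was listed at 0 in all SMC5 columns. Against NSE4 cells it was 7.75 at SNORD91A, 6.13 at AC032044.2, 4.95 at AL360181.1 and BANF1P2 and 3.55 at SVIL-AS1. Both comparisons use the same SMC5 columns, in which doxorubicin counts as 1 sample. The AC073107.2 difference did not pass without the doxorubicin-treated GFP replicate 1 (adjusted p = 0.0536), with the replicate block (0.076), or with a pseudocount of 0.1 or a filter of 5 FPKM (1 in both). The SNORD91A difference from GFP cells was 1.80 (adjusted p = 0.189), and it passed with the filter on the SMC5 columns (0.0116) and with no filter (0.0138).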

How the results depend on the processing

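The count of called loci in SMC5 cells was 3310 and ranged from 1766 to 3523 when 1 SMC5 library or column was left out. It was 0 when fitted on the groups compared alone and 6077 with the 12 columns as separate samples, which counts 1 sample as 2. It stayed within 1.5 times under median-of-ratios scaling (3876), quantile normalization (3879), filters on the SMC5 columns (3694), at 5 FPKM (2944) and with none (3585), a pseudocount of 0.1 (3225) and GC-adjusted values (4274). The 3 differences from GFP cells became 75 with the filter on the SMC5 columns, 1 at 5 FPKM, 431 with no filter, 11 in the groups compared alone and 83 with 12 columns, and 3 to 13 with a library left out. The 4 differences from NSE4 cells became 79 with the filter on the SMC5 columns, 466 with no filter, 12 and 92 in the last 2 fits, and 4 to 15 with a library left out. A locus at 1 FPKM only in the doxorubicin columns of SMC5 cells was kept out of the fit used for the calls. The filter on the SMC5 columns let such loci in. Their part in these counts, and any other cause, was not tested. Of 173 called loci that the naming rules give 46 lost their call without 1 PBS library and none changed sign in any fit. With no filter 20 of the 173 lost it. The number of risen or fallen loci moved by over 1.5 times in 26 of the 41 gene lists without PBS replicate 1, in 23 without replicate 2, in 15 with no filter and in 14 under quantile normalization. Replicate numbers did not pair the samples, as deviations of same-numbered libraries correlated at −0.039 to 0.073, and a replicate block gave 4380 called loci, 2 differences from GFP and 4 from NSE4 cells, with 8 of the 10 mitochondrial mRNA loci risen in place of 1. With n = 1 in doxorubicin, the precision rests on the spread of the other groups.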
